A study of Mus musculus with 18 samples.

Results

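Peaks of MDA5-protected RNA that lie in 3' UTRs were taken from liver samples of editing-deficient and Mavs-/- mice. A peak was counted when it overlapped, on its own strand, a 3' UTR and no 5' UTR of a protein-coding transcript in GENCODE M21 (GRCm38). No RNase only peaks had been subtracted from the lists. The rule gave 464 of the 11501 peaks in the 6 MDA5-protected libraries. Peaks that overlapped or touched on the same strand were joined across the 6 libraries into regions, and 229 of 4766 such regions held a 3' UTR peak, in 206 genes.

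The editing-deficient mice were Adar-/-; Mavs-/- and lack ADAR1, while the control mice were Mavs-/- and edit their RNA. Both groups lack MAVS, and the sample titles call the controls wild-type although their genotype label is Mavs-/-. Liver RNA of mice aged 8 to 9 days, on a background crossed back to Bl6J, was refolded and divided into 3 fractions with 3 replicates each, which makes 18 libraries. The MDA5-protected fraction was digested with RNase after incubation with recombinant mouse MDA5 without its CARD domains, the RNase only fraction was digested without that protein, and the input RNA was not digested. The study describes biological triplicates, and the labels do not tie replicates to animals, so p-values measure only the spread between these libraries.

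MDA5 is a cytoplasmic sensor that forms filaments along double-stranded RNA and signals through MAVS. ADAR1 edits adenosines of such double strands to inosines. This can weaken the pairing where an A:U pair becomes I:U, and can strengthen it where an A:C mismatch becomes I:C. In mRNAs long double strands arise mostly where repeat copies in opposite orientation lie in the same 3' UTR and fold back on each other as an inverted repeat. The RNase mix used here (RNase A and T1) cuts single-stranded RNA, so a fragment can survive digestion because it is paired or because MDA5 covers it, and the RNase only fraction shows what survives without MDA5.

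The sequences below are shown because they carry the feature that set apart the 3' UTR peaks without an RNase only peak. Each is the best-matching stretch of 30 bases of an inverted repeat arm inside a peak, followed by the stretch of the same transcript that can pair with it. They were read 5' to 3' from the GENCODE M21 transcripts, and capitals mark bases that are complementary between arm and partner. The Rnf168 arm lies at chr16:32300234-32300263 on the plus strand and its partner at chr16:32299914-32299943. The Knl1 arm lies at chr2:119104877-119104906 on the plus strand and its partner at chr2:119104389-119104418. The Zkscan3 arm lies at chr13:21392392-21392421 on the minus strand and its partner at chr13:21389920-21389949. The Pxmp4 arm lies at chr2:154586406-154586435 on the minus strand and its partner at chr2:154587053-154587082. The Slc35e2 arm lies at chr4:155622280-155622309 on the plus strand and its partner at chr4:155621115-155621144. All 10 stretches are in annotated 3' UTRs.
Rnf168 arm: TAAGTACACTGTAGCTGaCTTCAGACAGaC
Rnf168 partner: GcCTGTCTGAAGaCAGCTACAGTGTACTTA
Knl1 arm: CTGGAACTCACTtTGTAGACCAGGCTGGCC
Knl1 partner: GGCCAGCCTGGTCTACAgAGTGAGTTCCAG
Zkscan3 arm: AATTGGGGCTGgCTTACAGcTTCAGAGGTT
Zkscan3 partner: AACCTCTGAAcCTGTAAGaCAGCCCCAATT
Pxmp4 arm: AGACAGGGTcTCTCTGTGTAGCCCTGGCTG
Pxmp4 partner: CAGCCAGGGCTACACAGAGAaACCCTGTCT
Slc35e2 arm: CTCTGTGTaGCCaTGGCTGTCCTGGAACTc
Slc35e2 partner: aAGTTCCAGGACAGCCAgGGCaACACAGAG

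The number of 3' UTR peaks per library was higher in the editing-deficient libraries. The 3 editing-deficient libraries held 85, 115 and 125 of them, which were 5.2%, 4.15% and 4.36% of their 1636, 2768 and 2868 peaks. The 3 Mavs-/- libraries held 56, 48 and 35, which were 3.06%, 3.93% and 2.97% of their 1829, 1220 and 1180 peaks. The genotypes did not overlap in the number or in the share, although the libraries' total numbers of peaks did. The mean number was 108 ± 20.8 against 46.3 ± 10.6 (SD, n = 3 libraries each) and the mean share 4.57% ± 0.552 against 3.32% ± 0.534. Each difference gave p = 0.10 in a two-sided exact permutation test, the smallest p that 3 libraries against 3 can give, and an adjusted p of 0.20 over 5 such tests. With the same number of peaks taken from every library the difference in number was 16.7 rather than 62.0 peaks, and in the same direction. Exact 95% Clopper-Pearson intervals of the shares, which cover counting error only, ran from 4.17% to 6.38% for the highest library and from 2.07% to 4.10% for the lowest. The intervals of neighbouring libraries overlapped across genotypes. They were 3.44% to 4.97% in editing-deficient replicate 2 and 2.91% to 5.18% in Mavs-/- replicate 2.

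**Figure D1:**
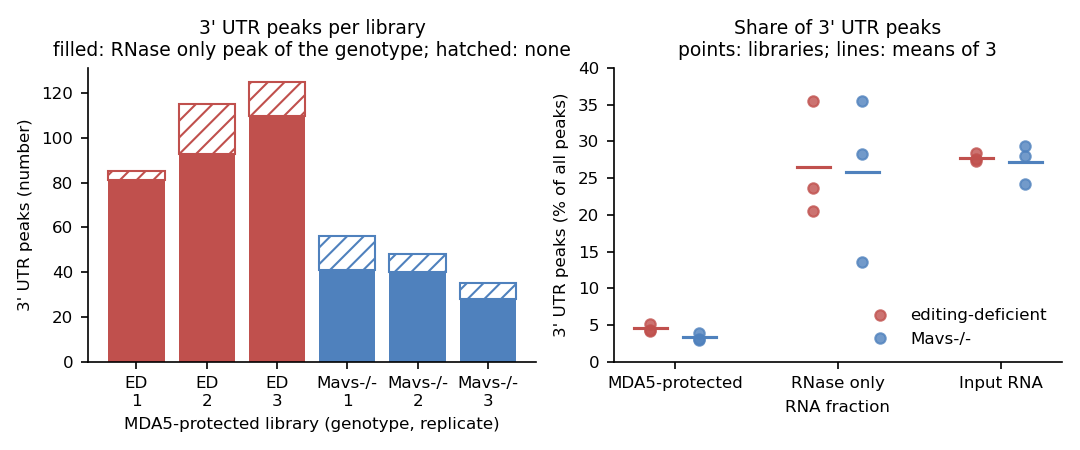
The left panel shows the number of 3' UTR peaks in each MDA5-protected library (ED, editing-deficient), with the filled part overlapping an RNase only peak of the same genotype and the hatched part not. The right panel shows the 3' UTR share of all peaks in each of the 18 libraries (points) with the mean of 3 libraries (lines), which is 4.57% and 3.32% in the MDA5-protected fraction.

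In the MDA5-protected fraction 3' UTRs took a smaller share of the peaks than in the other fractions. They held 35.5%, 23.6% and 20.5% of the RNase only peaks in the editing-deficient libraries and 28.2%, 35.5% and 13.6% in the Mavs-/- libraries. In the input they held 24.2% to 29.4%. The MDA5-protected library was lower than the RNase only library of the same genotype and number in 6 of 6 pairs, at 3.95% ± 0.839 against 26.2% ± 8.67 (SD, n = 6; exact sign-flip test, two-sided, p = 0.031, the smallest possible, adjusted p = 0.0469 over 6 tests).

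Most MDA5-protected 3' UTR peaks were also peaks without MDA5. Of the 464 peaks, 393 (84.7%) overlapped an RNase only peak of their genotype, whereas 62.2% of all 11501 MDA5-protected peaks did. The share was 95.3%, 80.9% and 88.0% in the editing-deficient libraries and 73.2%, 83.3% and 80% in the Mavs-/- libraries, beside 61.0% and 64.2% of all peaks of these genotypes. The genotypes overlapped (88.1% ± 7.21 against 78.8% ± 5.16, SD, n = 3, exact permutation p = 0.20, adjusted p = 0.20). Without the peaks that also touched coding bases they did not, at a difference of 24.0 rather than 9.21 percentage points (exact permutation p = 0.10). Among the other peaks of the same libraries the share was 65.6%, 59.0% and 57.3% in editing-deficient and 62.6%, 65.2% and 64.0% in Mavs-/- libraries. The 3' UTR peaks exceeded the other peaks in 6 of 6 libraries, by 21.2 percentage points on average (exact sign-flip p = 0.031, adjusted p = 0.0469). Without the peaks that touched coding bases this difference was 7.43 points (exact sign-flip p = 0.344), and without Ifih1 and the intestine and smooth muscle genes named further on it was 13.6 points (exact sign-flip p = 0.0625). Where an RNase only peak was present, it covered the whole MDA5-protected peak in 82.1% to 90.1% of cases per library.

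Seen from the other side, few RNase only 3' UTR peaks were also MDA5-protected peaks, and the share was highest among those with a large area. The share ranged from 3.94% to 15.2% over the 6 RNase only libraries. It was 26.8% to 63.9% among the top 10% of these peaks by area, the score that sums the significance along the peak, and 0.875% to 4% among the weaker 50%. The lowest share of the strong peaks was above the highest share of the weak ones. Area grows with the length of a peak, and a longer peak has more room to overlap another. The share among RNase only peaks outside 3' UTRs was not computed, so these values describe 3' UTR peaks without a background.

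**Figure D2:**
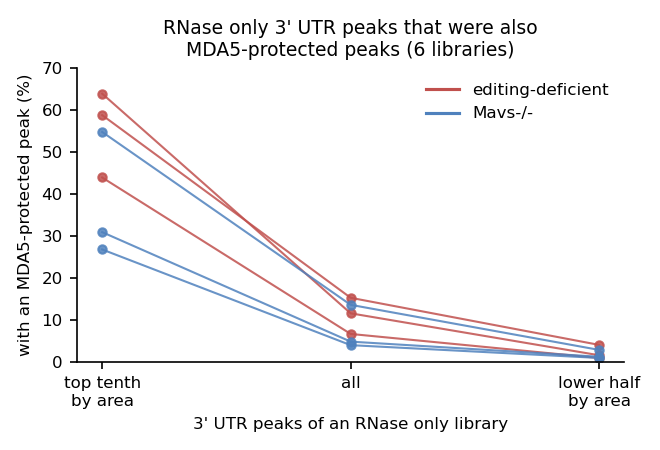
Each line is 1 RNase only library, and the vertical axis gives the percentage of its 3' UTR peaks that overlapped an MDA5-protected peak of the genotype. The share was 26.8% to 63.9% in the top 10% by area and 0.875% to 4% in the weaker 50%.

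The 3' UTR peaks without an RNase only peak differed from the rest in length and in sequence. Their median length was 162.5, 143 and 153 bases in the editing-deficient libraries and 144, 143.5 and 136 bases in the Mavs-/- libraries. With an RNase only peak it was 271, 255, 261.5, 265, 235 and 243 bases in the same order. The 2 classes did not overlap, and the longer class exceeded the other by 108 bases on average in 6 of 6 libraries (exact sign-flip p = 0.031, adjusted p = 0.0469). Median length did not separate the genotypes, at 253 ± 11.5 bases in editing-deficient and 232 ± 13.3 bases in Mavs-/- libraries (SD, n = 3, exact permutation p = 0.20, adjusted p = 0.20). With the same number of peaks taken from every library that difference was 92.8 rather than 20.7 bases (exact permutation p = 0.10). Over regions, 84 of the 189 with an RNase only peak also touched coding bases and 2 of the 40 without one did. The regions without lay farther from the end of the transcript, at a median of 1075 bases against 309.

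An inverted repeat arm was frequent in the 3' UTR peaks without an RNase only peak and rare in the others. An arm was counted where at least 50 aligned bases of the transcript, at 70% identity or more, matched the reverse complement of another stretch of the same transcript and reached into the peak. The share of peaks with an arm was 50% (2 of 4), 50% (11 of 22) and 40% (6 of 15) in the editing-deficient libraries, and 53.3% (8 of 15), 50% (4 of 8) and 42.9% (3 of 7) in the Mavs-/- libraries. With an RNase only peak it was 1.23%, 1.08%, 0.909%, 4.88%, 5% and 7.14%. The difference was 44.3 percentage points on average and positive in 6 of 6 libraries (47.7% ± 5.11 against 3.37% ± 2.65, SD, n = 6, exact sign-flip p = 0.031, adjusted p = 0.0469). The libraries share many regions, so they are not independent draws of 3' UTRs. Over regions, counted once each, 20 of the 40 without an RNase only peak in any of the 6 RNase only libraries held an arm, as did 6 of the 189 with one. A region had an RNase only peak in at least 1 library in 82.5% of cases, beside 59.2% of all 4766 regions, and in all 6 in 45.4% (104 regions), beside 6.61%. It had none in 17.5%, beside 40.8%.

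Arms were also rare among the 3' UTR peaks of the other fractions, at 0.612% of 8004 RNase only peaks and 0.789% of 11285 input peaks, against 9.27% of the 464 MDA5-protected peaks. Per MDA5-protected library the share was 3.53%, 10.4% and 5.60% in the editing-deficient and 17.9%, 12.5% and 14.3% in the Mavs-/- samples. The Mavs-/- shares were all above the editing-deficient ones, while the numbers of such peaks, 3, 12 and 7 against 10, 6 and 5, overlapped. This difference was not tested. The 3' UTRs of peaks without an RNase only peak were longer, with a median of 2071 bases against 660, and a long 3' UTR has more room for a second arm. Among peaks in 3' UTRs of at least 1000 bases, a limit chosen after seeing the data, the shares were 56.6% and 4.89% (exact sign-flip p = 0.031).

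GC content and folding energy did not pass the test. Median GC content was 47.0% ± 1.10 with and 48.7% ± 1.20 without an RNase only peak (SD, n = 6, exact sign-flip p = 0.0625, adjusted p = 0.075). The median folding energy of 200 bases around the peak was -24.6 ± 0.959 and -25.1 ± 1.16 kcal/mol per 100 bases (SD, n = 6, exact sign-flip p = 0.531, adjusted p = 0.531). Without the peaks that touched coding bases both differences reached p = 0.031 in the exact sign-flip test, at -4.22 percentage points of GC and 3.05 kcal/mol per 100 bases (with minus without an RNase only peak), so that the peaks without had more GC and a lower folding energy. A window of 200 bases does not reach most of the partner arms, which lay a median of 594 bases away.

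**Figure D3:**
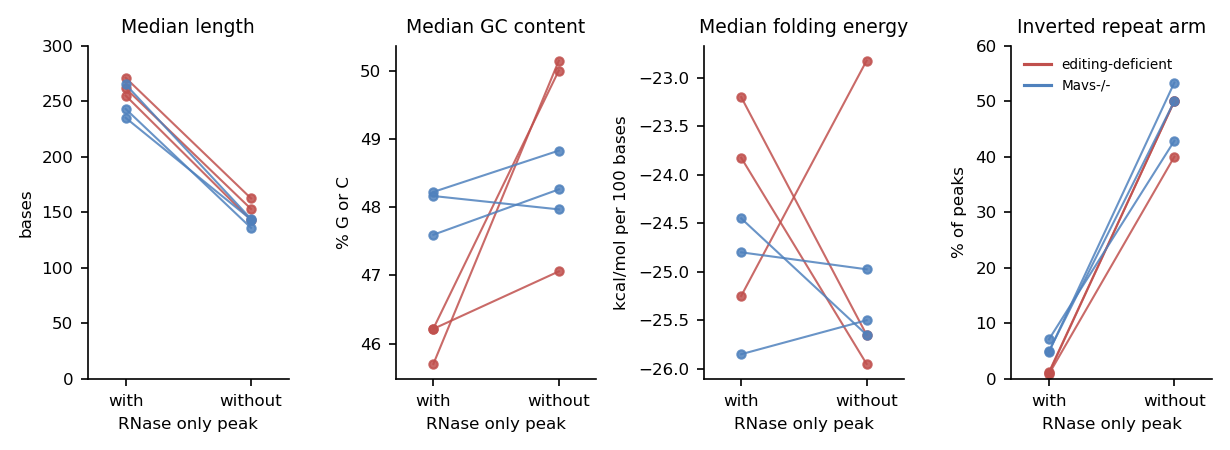
Each line joins the median or share of the 3' UTR peaks with and without an RNase only peak in 1 MDA5-protected library, for length in bases, GC content, folding energy in kcal/mol per 100 bases and the percentage with an inverted repeat arm. The lines for length and for the repeat arm run the same way in all 6 libraries (means 255 and 147 bases, 3.37% and 47.7%), and those for folding energy cross.

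The 20 regions with an arm and no RNase only peak belonged to 16 genes. The alignments were 108 to 534 bases long (median 167) and 71.9% to 87.9% identical. The longest, of 534 bases in Zfp626 and 466 in Zfp874b, run across both arms and the bases between them, so each arm there is shorter. Between the part of the arm inside the peak and the bases paired with it lay 140 to 5524 bases (median 594). The partner was in the same 3' UTR in all 20. In 17 of the 20 the arm also matched the arm of at least 1 other gene, by the same length and identity limits, so these genes carry related sequences. No repeat annotation was used here to name them. The partner arm was itself seldom a peak: of the 33 peaks in these regions, 4 had a peak of the same library on the partner and 29 had none. Over all 6 libraries, 9 of the 20 regions had a peak on the partner.

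Rnf168, a ubiquitin ligase of the DNA damage response, had a peak in 3 MDA5-protected libraries and in no RNase only or input library. Its -log10 adjusted P-value was 12.02 and 12.33 in editing-deficient replicates 1 and 2 and 10.54 in Mavs-/- replicate 2. The region (chr16:32300187-32300427) spans 241 bases of a 3' UTR of 2108 bases. Its arm of 132 aligned bases, the most identical of the 20 at 87.9%, has its partner 250 bases upstream.

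Knl1, a scaffold protein of the kinetochore, had 2 regions in its 3' UTR, and they are the arms of the same inverted repeat, at 84.8% identity over 164 aligned bases. The downstream arm (chr2:119104854-119104978) had a peak in editing-deficient replicates 1 and 2 (-log10 adjusted P-values of 9.36 and 7.91) and Mavs-/- replicate 1 (10.68), with no RNase only peak. The upstream arm (chr2:119104361-119104492) had a peak in Mavs-/- replicates 2 and 3 (12.62 and 11.57), and there 2 of the 3 Mavs-/- RNase only libraries had one too. No library had a peak on both arms, so that 5 of 6 libraries held a Knl1 peak on one arm or the other, and both genotypes were among them.

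Zkscan3, a zinc finger transcription factor, had a peak at chr13:21392177-21392435 in editing-deficient replicates 2 and 3 (-log10 adjusted P-values of 7.91 and 11.65) and Mavs-/- replicate 3 (7.15), with no RNase only peak. Its arm of 174 aligned bases has a partner 2223 bases away in a 3' UTR of 4649 bases. Pxmp4, a peroxisomal membrane protein, had a peak in editing-deficient replicate 3 (11.54) and Mavs-/- replicates 2 and 3 (9.55 and 9.41). Slc35e2, of a family of nucleotide sugar transporters, had one in editing-deficient replicate 2 (10.43) and Mavs-/- replicates 1 and 2 (10.88 and 8.43), and editing-deficient replicate 2 also had a peak on the partner arm. In each of these 3 genes the peaks came from both genotypes.

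Not all recurrent regions without an RNase only peak had an arm. There were 13 such regions with a peak in at least 2 MDA5-protected libraries, which is 5.68% of the 229, beside 16.8% of all 4766 regions. Of the 13, 8 had an arm and 5 did not, namely Aoc3, Vps35l, Bcorl1, Slfn9 and Lrrc3, the last named after its values were seen. Arms were searched only within spliced transcripts, so a partner in an intron or outside the gene would have been missed. Aoc3, which encodes an amine oxidase of the cell surface, was the 1 region of the 40 found in all 6 libraries, with -log10 adjusted P-values of 23.17, 22.72 and 23.83 in editing-deficient and 23.12, 23.20 and 24.57 in Mavs-/- libraries. These values lie within a narrow range and the genotypes overlap. The region is 102 bases long with a GC content of 70.8%, and the 30 bases shown next, at chr11:101338240-101338269 on the plus strand, lie in the part that all 6 peaks covered. They contain no a or g.
Aoc3 middle: tctcctttcctccctcccccctccctcccc

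Vps35l, a subunit of an endosomal recycling complex, had a peak of 477 to 646 bases in 5 libraries, with -log10 adjusted P-values of 11.22, 11.65 and 11.20 in editing-deficient and 8.02 and 5.60 in Mavs-/- replicates 1 and 3. Of the 703 bases of the region only 84 are annotated as 3' UTR and 17 as coding, so most of it was not searched for an arm. Bcorl1, a transcriptional corepressor, had a peak of 47 or 48 bases in editing-deficient replicate 3 (26.88) and Mavs-/- replicate 3 (29.91). Slfn9, of the Schlafen family, had a peak in Mavs-/- replicates 1 and 2 (5.80 and 7.45). Atl3, a GTPase that shapes the endoplasmic reticulum, had a peak with an arm in editing-deficient replicates 2 and 3 (8.66 and 8.18).

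Recurrence of the 3' UTR regions was no higher than that of MDA5-protected regions in general. A peak was present in 1 library in 129 regions (56.3%, beside 47.0% of all regions), in 2 in 39, in 3 in 22, in 4 in 16, in 5 in 13 and in all 6 in 10. The last are 4.37% of the 229, where 6.80% of all 4766 regions had a peak in all 6 libraries. A peak in at least 2 libraries was found in 100 regions (43.7%), beside 53.0% of all regions.

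More editing-deficient than Mavs-/- libraries had a peak in 164 regions (71.6%, beside 63.0% of all regions) and fewer in 35 (15.3%, beside 19.0%), while 64 regions (27.9%, beside 36.2%) had a peak in both genotypes. The counts that ask for at least 2 libraries of 1 genotype lay near the background. A peak in at least 2 editing-deficient and in no Mavs-/- library was found in 32 of the 229 regions (14.0%), beside 14.4% of all regions. The mirror pattern was found in 4 regions (1.75%), beside 2.41%. Of the 32 regions 29 had an RNase only peak in the Mavs-/- samples as well, where 82.5% of the 229 had one in any of the 6 RNase only libraries. An inverted repeat arm was held by 2 of the 32, beside 26 of the 229 (11.4%), and counts this small do not set the 32 apart. With the same number of peaks taken from every library the 2 counts were 10 and 5. They also move with single libraries: the first was 18, 15 and 12 without editing-deficient replicate 1, 2 or 3 and up to 43 without a Mavs-/- library, and the second was 2 without any one Mavs-/- library and 8 without editing-deficient replicate 3.

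The 7 regions with a peak in all 3 editing-deficient and no Mavs-/- library (3.06%, beside 2.96% of all regions) lay in Hoxb13, Golm1, Aqp8, S100a16, Ppp1r1b, Gpa33 and Slc26a3. Hoxb13, a homeobox transcription factor of the hindgut, had -log10 adjusted P-values of 8.24, 6.56 and 6.56. Aqp8, a water channel, had 8.74, 6.56 and 7.31, and Slc26a3, the chloride and bicarbonate exchanger of the colon, had 6.64, 6.95 and 7.91. All 7 had an RNase only peak in all 3 editing-deficient libraries and in 2 or 3 Mavs-/- libraries. Reg4, Pmp22 and Tm4sf20 followed with 2 libraries each and RNase only peaks in all 6. Most of the Tm4sf20 region is coding, with 280 coding bases and 22 of 3' UTR. The 4 regions of Mavs-/- samples lay in Cyb5r3, a reductase of cytochrome b5, in Lgals3, a galectin, in Slfn9 and in the upstream arm of Knl1. The Lgals3 region is likewise mostly coding, with 156 coding bases and 9 of 3' UTR. Cyb5r3 alone (0.437% of the regions, beside 0.818%) was found in all 3 Mavs-/- and no editing-deficient library, with values of 9.63, 9.21 and 8.45, and 5 of 6 input libraries had a peak there too.

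**Figure D4:**
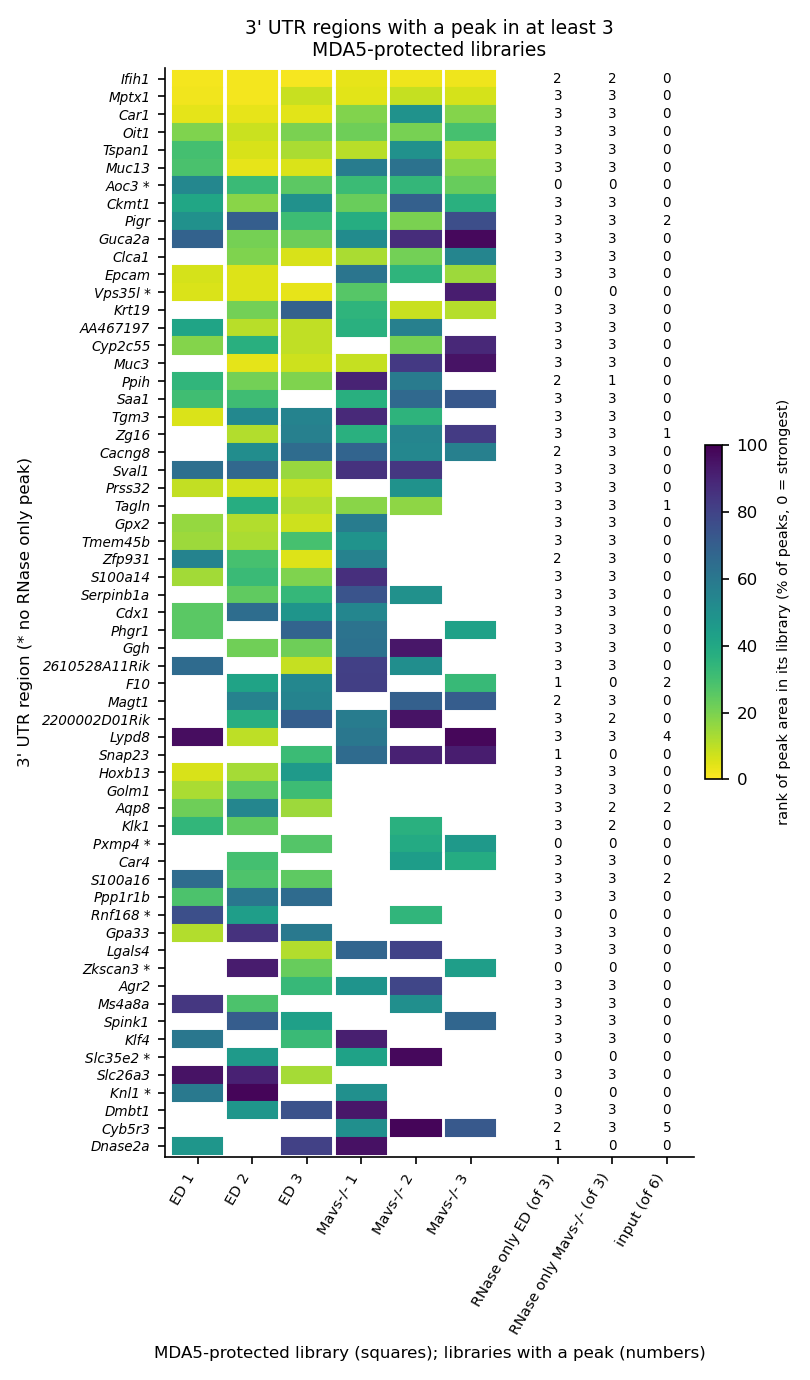
Each row is a 3' UTR region with a peak in at least 3 MDA5-protected libraries, and the colour of a square gives the rank of its peak by area among all peaks of that library in percent (0 = strongest, white = no peak, ED = editing-deficient). The numbers at the right count the RNase only and input libraries with a peak, and the rows marked with an asterisk, such as Aoc3, Vps35l and Rnf168, have no RNase only peak.

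The 10 regions found in all 6 libraries lay in Ifih1, Mptx1, Car1, Oit1, Tspan1, Muc13, Aoc3, Ckmt1, Pigr and Guca2a, in order of their mean rank by area. Mptx1 is a mucosal pentraxin, Car1 a carbonic anhydrase, Muc13 a mucin of the cell surface, Pigr the receptor that carries antibodies across epithelia and Guca2a the precursor of guanylin, a peptide hormone of the gut. Most of the Mptx1 region is coding, with 596 coding bases and 84 of 3' UTR. In Mptx1 the -log10 adjusted P-value was 11.46, 10.29 and 10.96 in the editing-deficient and 8.02, 8.64 and 8.22 in the Mavs-/- libraries. In Car1 it was 10.84, 9.28 and 9.81 against 7.59, 7.97 and 7.98. In 7 of the 10 regions the editing-deficient values were all above the Mavs-/- ones, and in Ifih1, Aoc3 and Pigr (7.03, 7.61 and 7.31 against 8.02, 6.83 and 7.15) the genotypes overlapped. The same count was not made over all 324 MDA5-protected regions with a peak in all 6 libraries, so it has no background here. Significance grows with depth, which differs between libraries and is unknown here, so these values were not tested between genotypes. Of the 10 regions 8 had an RNase only peak in all 6 RNase only libraries, Ifih1 had one in 4 and Aoc3 in none.

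Ifih1, the gene of MDA5 itself, gave the strongest 3' UTR region, at a mean rank of 2.22% of the peaks of a library. Its -log10 adjusted P-value was 34.23, 32.93 and 30.22 in editing-deficient and 30.41, 27.11 and 25.13 in Mavs-/- libraries. The peak lies on the last coding exon, with 180 coding bases, and passes the stop codon by at most 30 bases of a 3' UTR of 2111 bases. Peaks covered 14 or 15 of the 17 coding exons on the strand of the gene in every MDA5-protected library. The most upstream codon covered was 216 to 257 of 1026, and 74.5% to 79.0% of the coding bases were covered. Peaks lay on the opposite strand of 5 to 11 coding exons as well, from codon 292 to 333 on. No input library had a peak on an Ifih1 coding exon. The RNase only libraries had peaks on 0 to 6 of the exons except for Mavs-/- replicate 1, where 16 exons were covered on the strand of the gene and 17 on the other. In that library, digested without MDA5, the cover began at codon 1 on both strands. It took in 79.2% of the coding bases on the strand of the gene and 100% on the other. The protein added to the MDA5-protected fraction was made from a mouse MDA5 cDNA and lacks the CARD domains, which are at the start of the protein. Whether material of that preparation contributed to these peaks was not tested.

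A peak on the opposite strand was rare among the 3' UTR peaks. Of the 3' UTR peaks 0% to 5.71% per MDA5-protected library had one, and of the other peaks 4.56% to 12.2%.

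The labelled tissue was checked against its markers. All 9 hepatocyte markers, among them Alb, Apoa1 and Ttr, had an exonic peak in every input library and none in any MDA5-protected or RNase only library. The same held in the digested libraries for all 7 erythroid, 8 macrophage, 7 granulocyte and 5 endothelial markers, of which 4 to 7, 6 or 7, 1 to 7 and 0 to 4 had a peak in an input library. Of the 6 markers of stellate cells and fibroblasts 1, Des, had an MDA5-protected 3' UTR peak, and of the 4 markers of bile duct cells 2, Epcam and Krt19, which had no input peak. These 2 groups were not absent from the RNase only fraction. There 5 of the 6 and 3 of the 4 had a 3' UTR peak, beside 12.4% of all genes. Per RNase only library 2 to 5 of the 6 and 2 or 3 of the 4 had an exonic peak. Peaks of the digested libraries were called against the input as control, so a gene with high input coverage needs more signal to give a peak. Fewer cells of a type and less RNA per cell cannot be told apart in bulk RNA. The tissue is called liver here by its label, and the peak lists of the digested libraries did not show its hepatocyte genes.

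Many of the shared 3' UTR regions lay in genes known from the epithelium of the large intestine and from smooth muscle. Lists of 50 and 14 such genes were written after the regions had been seen, so they are a description and carry no test. Of the 50 intestine genes 29 had an MDA5-protected 3' UTR peak, beside 0.979% of the 21043 genes with a 3' UTR. The share of all genes was 12.4% in the RNase only and 14.4% in the input fraction. An exonic peak was found for 22, 24 and 24 of them in the editing-deficient and for 17, 16 and 14 in the Mavs-/- MDA5-protected libraries. The corresponding numbers were 43, 38, 34, 39, 38 and 31 in the RNase only libraries and 3 to 8 in the input. Of all 21043 genes, 142 to 291 had an exonic peak per MDA5-protected library. In the RNase only libraries 702 to 1696 of them did, and in the input 1425 to 3010. Of the 14 smooth muscle genes, such as Tagln, Acta2 and Myh11, 1 to 7 had a peak in the MDA5-protected libraries, 9 to 12 in the RNase only libraries and 1 to 3 in the input. The origin of these peaks could not be settled from the peak lists. Lists of other organs were written at the same time. Of 20 genes of the small intestine and 12 of the stomach 0 had an MDA5-protected peak, and of 16 genes of the pancreas 2 did, Cela1 and Sycn. In the RNase only fraction 4 of the 20 small intestine genes (20%, beside 12.4% of all genes) had a 3' UTR peak. There 0 of the 12 stomach and 2 of the 16 pancreas genes had one, and 43 of the 50 large intestine genes.

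The intestine and smooth muscle genes held 42 of the 189 regions with an RNase only peak and 0 of the 40 without. They made up 14 of the 129 regions found in 1 library, 6 of 39 in 2, 8 of 22 in 3, 4 of 16 in 4, 5 of 13 in 5 and 5 of 10 in all 6. Because the lists were written after the regions had been seen, these counts are a description only. Epcam and Krt19, which are in the list of the large intestine too, had a peak in 5 libraries each. Without Ifih1 and these genes, an alternative chosen after seeing the data, 4 rather than 10 regions were found in all 6 libraries, and the difference in 3' UTR peaks per library was 51.3 rather than 62.0. The share with an inverted repeat arm was then 47.7% without and 3.24% with an RNase only peak. The regions of editing-deficient samples were 26 rather than 32. The difference between genotypes in RNase only overlap was 16.1 rather than 9.21 percentage points and that in median length 48.2 rather than 20.7 bases (exact permutation p = 0.20 for both).

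**Figure D5:**
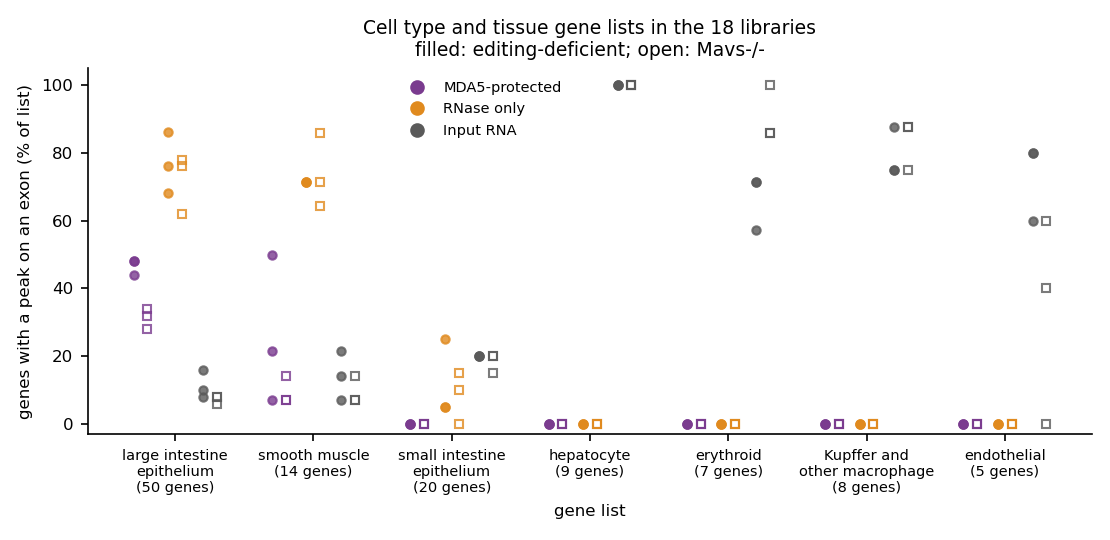
The vertical axis gives the percentage of the genes of a list that had a peak on an exon, with 1 symbol per library (filled, editing-deficient; open, Mavs-/-) and a colour per fraction. Hepatocyte genes stand at 100% in all input libraries and at 0% in all digested libraries, and the 50 large intestine genes stand highest in the RNase only fraction.

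The gene groups with known 3' UTR structures or liver functions had 0 or 1 gene each with an MDA5-protected 3' UTR peak, beside 0.979% of all genes, and these counts are too small to set a group apart. Of 24 selenoprotein genes, whose 3' UTRs hold the stem-loop that directs selenocysteine insertion, 1 had one: Gpx2, the glutathione peroxidase of the gut, in all 3 editing-deficient libraries (8.24, 7.91 and 8.43) and Mavs-/- replicate 1 (6.82), always with an RNase only peak. The Gpx2 region holds 350 coding bases and 221 of 3' UTR, and whether it covers the stem-loop was not tested. In the RNase only fraction 7 of the 24 (29.2%, beside 12.4% of all genes) had a 3' UTR peak. Of Tfrc and the replication-dependent histone genes, whose mRNAs end in or carry short stem-loops, 1 of 55 did, Hist1h1c, in editing-deficient replicate 2. Plasma protein genes gave 0 of 60 and liver metabolic enzymes 1 of 40, Hmgcs1, whereas 57 and 35 of them had a 3' UTR peak in the input.

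Of the 32 genes of interferon response and RNA sensing 2 (6.25%, beside 0.979% of all genes) had an MDA5-protected 3' UTR peak, Ifih1 and Eif2ak2, which encodes the kinase PKR and was found in editing-deficient replicate 3 only (6.96). Cytosolic ribosomal protein genes gave 3 of 99 (3.03%), Rpl14, Rpl37 and Rps27rt, each in 1 library, and 46 (46.5%, beside 12.4% of all genes) in the RNase only fraction. Each of these 3 MDA5-protected regions holds more coding bases than bases of 3' UTR. Rps27rt is a near copy of Rps27, and its reads may be shared with that gene. Adar and Mavs had no MDA5-protected peak, and Mavs had no peak in any library. Adar had a peak outside the 3' UTR in the input libraries labelled editing-deficient replicates 2 and 3, and 2 intronic peaks in the RNase only library labelled editing-deficient replicate 2. It had none in a library labelled Mavs-/-, so the deleted gene gave peaks only in libraries labelled as lacking it. These lists do not show whether the peaks lie in the deleted part, and the genotypes rest on the labels.

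Zinc finger genes gave 6 of 459 (1.31%, beside 0.979% of all genes), namely Zfp626, Zfp65, Zfp874b, Zfp931, Zfp950 and Zkscan3. In the RNase only fraction they gave 13 (2.83%, beside 12.4%). Of their 10 regions 7 had no RNase only peak, beside 17.5% of the 229. Zfp626 had peaks on 2 sites that pair with each other, both in Mavs-/- replicate 1 (10.02 and 8.40). Their alignment of 534 bases, the longest of the 20, runs across both sites and the bases between them. Zfp874b likewise had 2 paired sites, in Mavs-/- replicates 1 and 2 (8.21 and 9.03). Zfp931 had the longest region found in at least 2 libraries, with 1424 bases, a peak in all 3 editing-deficient libraries and Mavs-/- replicate 1, and 5 RNase only libraries with a peak. That Zfp931 region holds 706 coding bases and 566 of 3' UTR. Muc13 with 981 and Pigr with 891 bases had the next longest regions.

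Few genes had several regions: 186 of the 206 had 1. B3gnt7, Prdx6 and Zfp931 had 3 each, and Aoc1 and Atp1b1, named next by alphabet, had 2, as did 15 other genes. Gla, the lysosomal galactosidase A, had its 2 regions on the arms of 1 inverted repeat, 1 in editing-deficient replicate 2 and 1 in replicate 3, with no RNase only peak. It was named after its values were seen.

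Input peaks were present at few of the 3' UTR peaks, but at a larger share of the 3' UTR regions than of all regions. The share that overlapped an input peak of the genotype was 7.06%, 15.7% and 15.2% in editing-deficient and 7.14%, 4.17% and 2.86% in Mavs-/- libraries (12.6% ± 4.84 against 4.72% ± 2.20, SD, n = 3, exact permutation p = 0.20, adjusted p = 0.20). With equal numbers of peaks the difference was 0.699 rather than 7.91 percentage points. Over regions, 58 of 229 (25.3%) had an input peak in at least 1 of 6 libraries, beside 6.42% of all 4766.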

How the data were processed

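Peaks were called by the authors, per library and strand, with Genrich 0.6.1 on GRCm38 alignments from NextGenMap, after trimming in Trim Galore 0.6.6 (adjusted P-value of at most 0.01, area of at least 500, gap of at most 20 bp), for digested libraries against input. Each deposited list gives positions, the score (area under the significance curve) and -log10 P-values as the authors' caller wrote them, with no read counts. The depth is therefore unknown and the scores were ranked only within a library.

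Peaks were matched to GENCODE M21, whereas the study used another release. Inverted repeats were searched in transcripts of at most 30000 bases with blastn (BLAST 2.17.0, word size 11), and windows were folded with ViennaRNA 2.7.2. Tests were exact, two-sided and adjusted by Benjamini-Hochberg over families of 5 and 6, with Python 3.11.15, numpy 2.4.6, pandas 2.3.3, scipy 1.17.1 and matplotlib 3.10.9. Simulated data gave 9 of 9 planted values and 98 of 100 planted inverted repeats. The members and lists were chosen with earlier results of these data known. Named regions were set by rule: genes fixed by name, the 10 regions with the best mean rank in all 6 libraries, up to 10 of each genotype and 10 without RNase only peaks, the 3 longest, the 5 genes with most regions and members of the fixed lists. The remaining genes were named after their values were seen. Alternatives were the middle base, no coding bases, a minimum area of 1000, a -log10 adjusted P-value of 5, other definitions of RNase only overlap, equal numbers of peaks, strands ignored, merging within 200 bases, another window and repeat limit, the replicate block and each library left out.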

Additional observations from a re-analysis of the deposited data

How the results depend on the processing

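Of 202 recomputed values, 160 kept their direction and side of the threshold or stayed within 1.5 times the count. With a minimum area of 1000 the median length of 3' UTR peaks was lower in editing-deficient samples (difference -11.3 bases rather than 20.7), 2 rather than 10 regions were found in all 6 libraries, 11 rather than 32 in editing-deficient and 0 rather than 4 in Mavs-/- samples only. That area left a library with no peak without an RNase only peak, so length, GC content, folding energy and repeat arms of the 2 classes were not run there. Without the peaks touching coding bases the excess of RNase only overlap was 7.43 percentage points, the GC difference -4.22 and that of folding energy 3.05 kcal/mol per 100 bases. Without Ifih1 and the intestine and smooth muscle genes the excess was 13.6 points and 4 regions were found in all 6 libraries, and in 3' UTRs of at least 1000 bases the GC difference was -5.51; both settings were chosen after seeing the data. With equal numbers of peaks 10 regions were of editing-deficient samples only. The cause of these changes was not tested.

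With each library left out, the within-library tests have 5 libraries and a smallest exact sign-flip p of 0.0625, so they could not pass. Their differences ran from 105.5 to 111.4 bases in length, from -24.5 to -20.3 points in 3' UTR share, from 19.3 to 23.3 points in RNase only overlap and from 43.4 to 46.0 points in repeat arms. The regions of editing-deficient samples only ranged from 12 to 43 and those of Mavs-/- samples only from 2 to 8.

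With the replicate number as a replicate block the 5 genotype differences were by construction the same (62.0 peaks, 1.25, 9.21 and 7.91 points and 20.7 bases), with exact paired sign-flip p of 0.25 or 0.50 where 0.25 is the smallest possible. Deviations of same-numbered libraries correlated at 0.0552, 0.0222 and 0.0330 over regions, and those of differently numbered libraries at -0.0502 to 0.0243. Correlations this small cannot decide whether same-numbered libraries share more than a number. The lists hold no read counts, so a missing peak is no measure of absent RNA.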
